A study of Homo sapiens with 6 samples.

Results

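The genes described here encode the machine that makes messenger RNA and the factors that travel with it: 12 subunits of RNA polymerase II, 23 elongation factors and 12 subunits of the Integrator complex. They were chosen by symbol as 47 of the 62696 genes in the count files, and each symbol matched 1 Ensembl identifier. RNA polymerase II starts at promoters, is held soon afterwards by DSIF and NELF, and is released when kinases phosphorylate these factors and the long repeated tail of the largest subunit, POLR2A. The PAF1 complex, SPT6, FACT, Elongin, TFIIS and the super elongation complex then help it through chromatin, while the 7SK particle keeps the releasing kinase in reserve and Integrator cuts the nascent RNA and ends transcription early at many genes. CDK12, with cyclin K, is one of the kinases that phosphorylate the POLR2A tail.

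The cells were C4-2, a human castration-resistant prostate cancer line, untreated and grown in RPMI medium with serum. The knockout group had 3 libraries of C4-2 cells in which CDK12 was targeted with CRISPR-Cas9 (CDK12KO), and the control group had 3 libraries of C4-2 cells with the vector (VEC, genotype given as WT). The labels do not say whether the knockout line was 1 clone, or whether replicates were separate cultures, so the p-values reflect no more than how far these libraries differ from each other, which may be technical. Any other difference between the lines and the loss of CDK12 cannot be told apart.

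CDK12 itself had 60.8, 56.9 and 56.5 CPM (reads per 1e+06 gene reads after TMM scaling) in knockout libraries 1, 2 and 3, against 60.2, 48.0 and 57.1 CPM in vector libraries 1, 2 and 3, and a count of this kind cannot say whether the protein was lost. All 11 luminal prostate markers averaged at least 101 CPM, while the 5 leukocyte and 3 basal markers averaged under 1 CPM each. Fibroblast, endothelial and neuroendocrine markers, each list taken alone, summed to at most 30.3 CPM in a knockout library and 23.2 CPM in a vector library. Genes took in 18333400 to 21590817 reads in the knockout libraries and 16617644 to 18178467 in the vector libraries. Knockout library 2 stood apart, with log2 CPM correlating across genes at 0.916 to 0.950 with the other 5 libraries, which correlated at 0.977 to 0.990 with each other. Counts and medians of the groups are therefore given for all 6 libraries and again without knockout library 2. Fold changes of single members are those without it unless stated.

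In the comparison of knockout with vector libraries, 7 of the smaller subunits of RNA polymerase II and the adaptor pair of Elongin were higher in knockout cells, and POLR2A was lower. These calls were made in the fit without knockout library 2. There, 14 of the 45 tested members passed the quasi-likelihood test of edgeR (adjusted p under 0.05). Of these 9 were higher and 5 lower, where 19.1% of the 16339 tested genes passed (10.2% higher and 8.88% lower). The polymerase held 8 of these calls, 7 higher and 1 lower among 12 subunits, which is 66.7% of them. Among the 21 tested elongation factors 2 rose and 2 fell, a share of 19.0% that lies at the background. In Integrator 0 of 12 subunits rose and 2 fell, or 16.7%. Counting members whose knockout libraries 1 and 3 lay wholly above or below the vector libraries gave 17 above and 10 below, where 24.5% and 22.8% of tested genes did.

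With all 6 libraries 0 of 45 members passed in edgeR, where 0.596% of 15783 tested genes did. At an unadjusted p under 0.05 there were 11 members, where 21.7% of all tested genes reached that level, and DESeq2's Wald test called ELOB alone, where it called 4.40%. The median log2 fold change was 0.59 for the polymerase subunits, -0.04 for the elongation factors and -0.21 for the Integrator subunits with all libraries, beside 0.00 over all tested genes. Leaving out knockout library 2, the same medians were 0.33, -0.02 and -0.12, beside -0.01 over all tested genes. The order of the 3 groups was thus the same in both fits, and the size of the polymerase median was smaller in the second. The fits share all libraries but knockout library 2, so they are not independent.

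**Figure D1:**
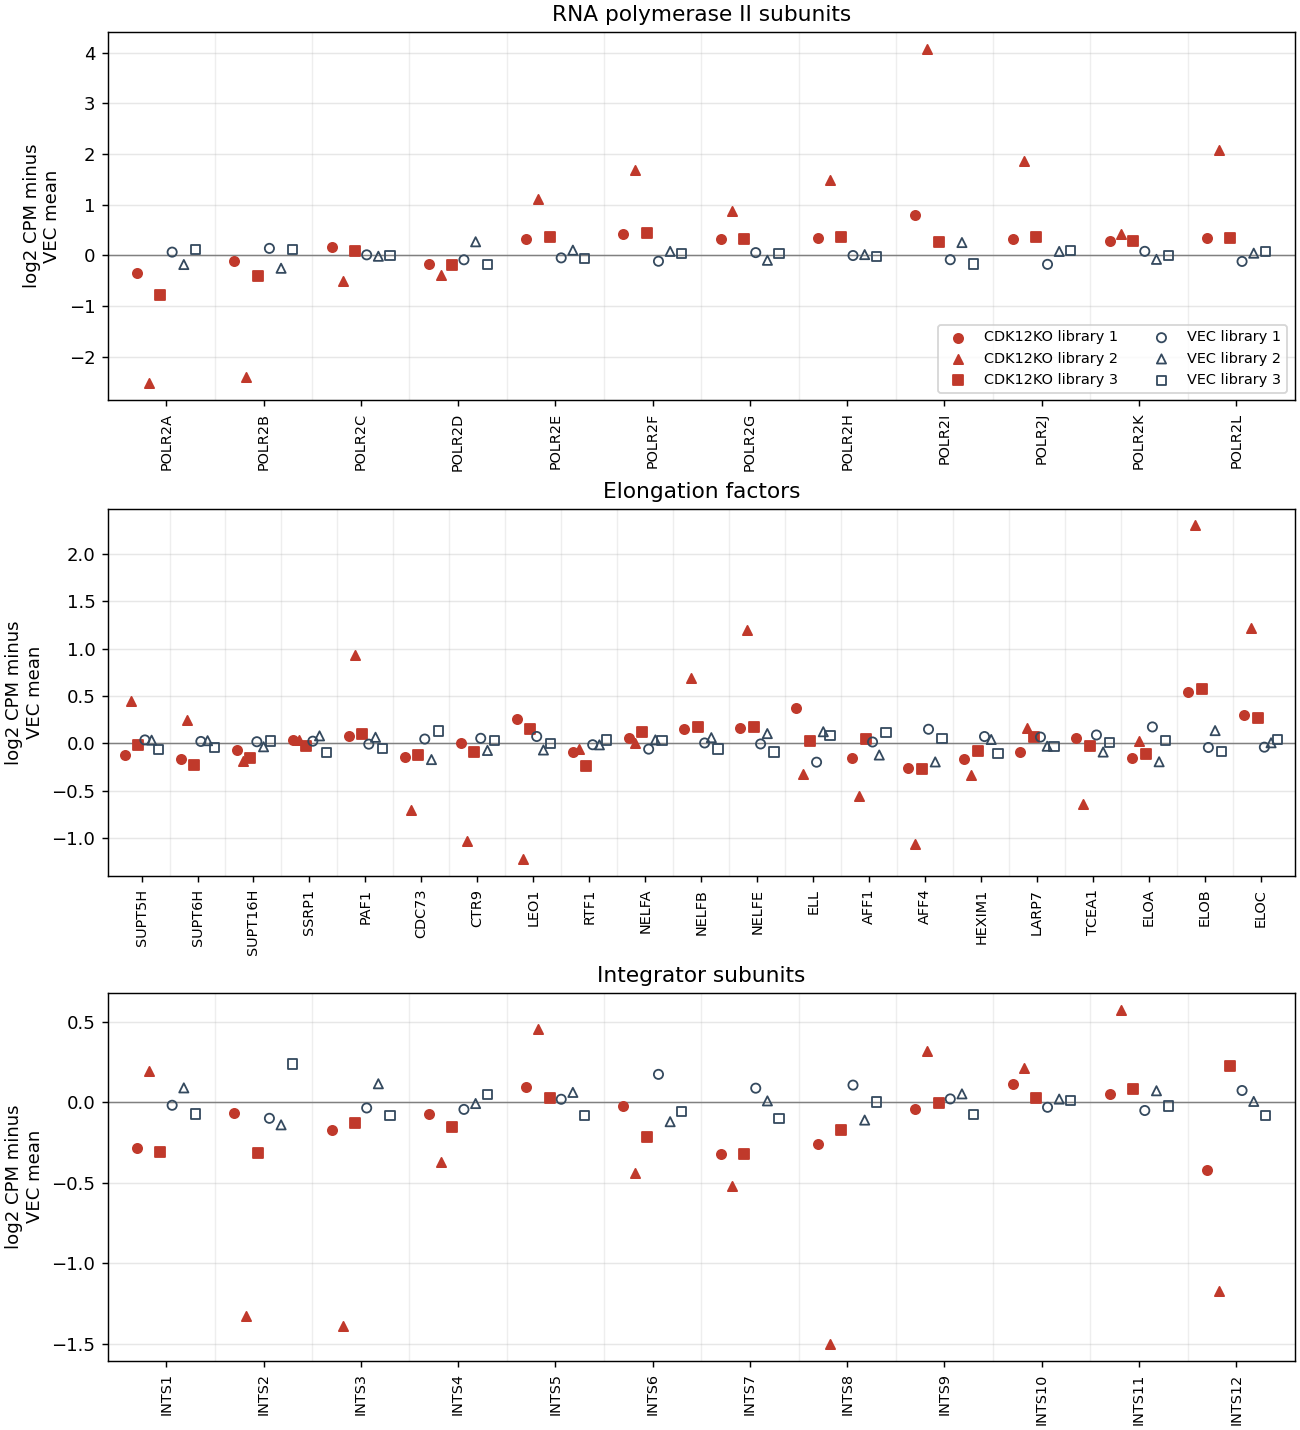
Log2 CPM of each tested member minus its mean over the vector libraries (vertical axis, log2 units; each panel has its own range), with filled red symbols for the 3 CDK12KO libraries and open symbols for the 3 VEC libraries. The median shift of the polymerase subunits was 0.33, 1.00 and 0.31 in knockout libraries 1, 2 and 3, and the triangles of knockout library 2 lie farthest from 0 in most members.

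Of the 14 called members 12 had knockout library 2 outside the vector range on the called side, and the exceptions were SUPT6H and INTS1. Taken against the vector mean, knockout library 2 shifted in the called direction in the same 12 members. It did so in 2952 of all 3123 called genes (94.5%), so the members matched no more often than called genes at large. Both sides of these counts use the same vector libraries.

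POLR2A, the catalytic subunit that carries the repeated tail, was lower in every knockout library. It had 56.8, 12.5 and 42.2 CPM in knockout libraries 1, 2 and 3, against 75.8, 64.0 and 78.4 CPM in the vector libraries. The groups did not overlap, and the 3 knockout libraries differed widely among themselves. The log2 fold change was -0.56 ± 0.11 (SE) without knockout library 2 (edgeR adjusted p = 0.00158) and -0.96 ± 0.47 with it (edgeR adjusted p = 0.261). The call ended when knockout library 3 was also left out (log2 -0.36, edgeR adjusted p = 0.0850). POLR2B, the second-largest subunit, which forms the active centre together with POLR2A, had 82.3, 16.9 and 67.7 CPM in knockout libraries, against 98.5, 75.0 and 96.7 CPM in vector libraries. In POLR2B knockout library 1 lay within the vector range, and the log2 fold change of -0.27 ± 0.11 did not pass (edgeR adjusted p = 0.0904). Knockout library 2 kept 33.5% of the POLR2B reads of the stranded columns in the unstranded count, and the other libraries 73.3% to 86.1%. In the sum of the stranded columns it had 41.7 CPM, and the log2 fold change without it was -0.13 ± 0.09 (edgeR adjusted p = 0.308).

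The subunits that RNA polymerase II shares with polymerases I and III are POLR2E, POLR2F, POLR2H, POLR2K and POLR2L. All 5 rose in knockout cells without knockout library 2, a grouping made after their values were seen. POLR2E had 508, 871 and 519.6 CPM in the knockout libraries, against 391, 435 and 389 CPM in the vector libraries (log2 0.34 ± 0.07, edgeR adjusted p = 0.00117 without knockout library 2). POLR2F had 99.6, 240.1 and 101 CPM in knockout libraries, against 68.5, 78.4 and 76.0 CPM in vector libraries (log2 0.42 ± 0.07, edgeR adjusted p = 0.000529). In both genes all knockout libraries lay above all vector libraries. POLR2H had 138, 305 and 139.6 CPM in knockout libraries, against 108, 109.9 and 107 CPM in vector libraries (log2 0.35 ± 0.07, edgeR adjusted p = 0.000926), and the vector libraries lay within a few CPM of each other. POLR2L, a small zinc-binding subunit, stood at 243, 815 and 246 CPM in knockout libraries, against 177, 198 and 202 CPM in vector libraries (log2 0.34 ± 0.07, edgeR adjusted p = 0.00155). The unstranded count of POLR2L kept 73%, 90% and 74% of the reads of the stranded columns in knockout libraries, and 66% to 72% in vector libraries. In the sum of these columns it had 282, 748 and 280 CPM in knockout libraries, against 227, 241 and 240 CPM in vector libraries. The log2 fold change there was 0.25 ± 0.06 without knockout library 2 (edgeR adjusted p = 0.00622). For POLR2K, also a small zinc-binding subunit, the values were 58.3, 63.5 and 57.8 CPM in knockout libraries, against 50.4, 45.1 and 47.5 CPM in vector libraries (log2 0.28 ± 0.08, edgeR adjusted p = 0.0254). POLR2K was the shared subunit in which knockout library 2 differed least from the other knockout libraries.

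Among the 7 subunits found in RNA polymerase II alone, POLR2G and POLR2J rose and POLR2A fell. POLR2G, which forms the stalk with POLR2D, had 84.8, 125 and 85.0 CPM in the knockout libraries, against 70.2, 63.2 and 69.4 CPM in the vector libraries (log2 0.32 ± 0.08, edgeR adjusted p = 0.00551). Its partner POLR2D had 74.5, 64.4 and 73.8 CPM in knockout libraries, against 79.5, 102 and 74.2 CPM in vector libraries, and did not pass (log2 -0.20 ± 0.10, edgeR adjusted p = 0.171). POLR2J, which pairs with POLR2C during assembly, had 96.8, 281 and 99.9 CPM in knockout libraries, against 68.5, 81.7 and 82.7 CPM in vector libraries (log2 0.34 ± 0.08, edgeR adjusted p = 0.00669). POLR2J has near-identical copies in the genome, so its level is uncertain. POLR2C stood at 72.9, 45.4 and 68.6 CPM in knockout libraries, against 65.4, 64.2 and 65.0 CPM in vector libraries, with knockout library 2 below and the other knockout libraries above the vector range (log2 0.12 ± 0.08, edgeR adjusted p = 0.294).

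POLR2I, the subunit known for transcript cleavage and fidelity, needs its own account. Exons of genes on the opposite strand cover 79.6% of its exonic bases in GENCODE 29, and it kept only 98, 727 and 61 counts in knockout libraries, against 48, 56 and 42 counts in vector libraries. Its log2 fold change without knockout library 2 was 0.56 ± 0.26 (edgeR adjusted p = 0.141). In the sum of the stranded columns, where reads of this gene and its antisense neighbours cannot be told apart, it had 83.1, 263 and 79.5 CPM in knockout libraries, against 61.8, 71.7 and 61.0 CPM in vector libraries (log2 0.32 ± 0.08 and edgeR adjusted p = 0.00434 without knockout library 2).

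The calls of POLR2E, POLR2F, POLR2H and POLR2L without knockout library 2 held in each of the 13 alternatives run. With all 6 libraries the log2 fold changes of the 7 subunits that rose ran from 0.33 (POLR2K) to 1.17 (POLR2L), with edgeR adjusted p of 0.201 to 0.223. POLR2G and POLR2J lost theirs when knockout library 1 or 3 was also left out (edgeR adjusted p = 0.0771 and 0.0782 for POLR2G, 0.0576 and 0.102 for POLR2J), which leaves 1 knockout library assumed to vary like the others. POLR2K lost its call in the same way (0.190 and 0.161), without vector library 3 (0.0560) and after the correction for length and GC content described below (0.0518), all as edgeR adjusted p.

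**Figure D2:**
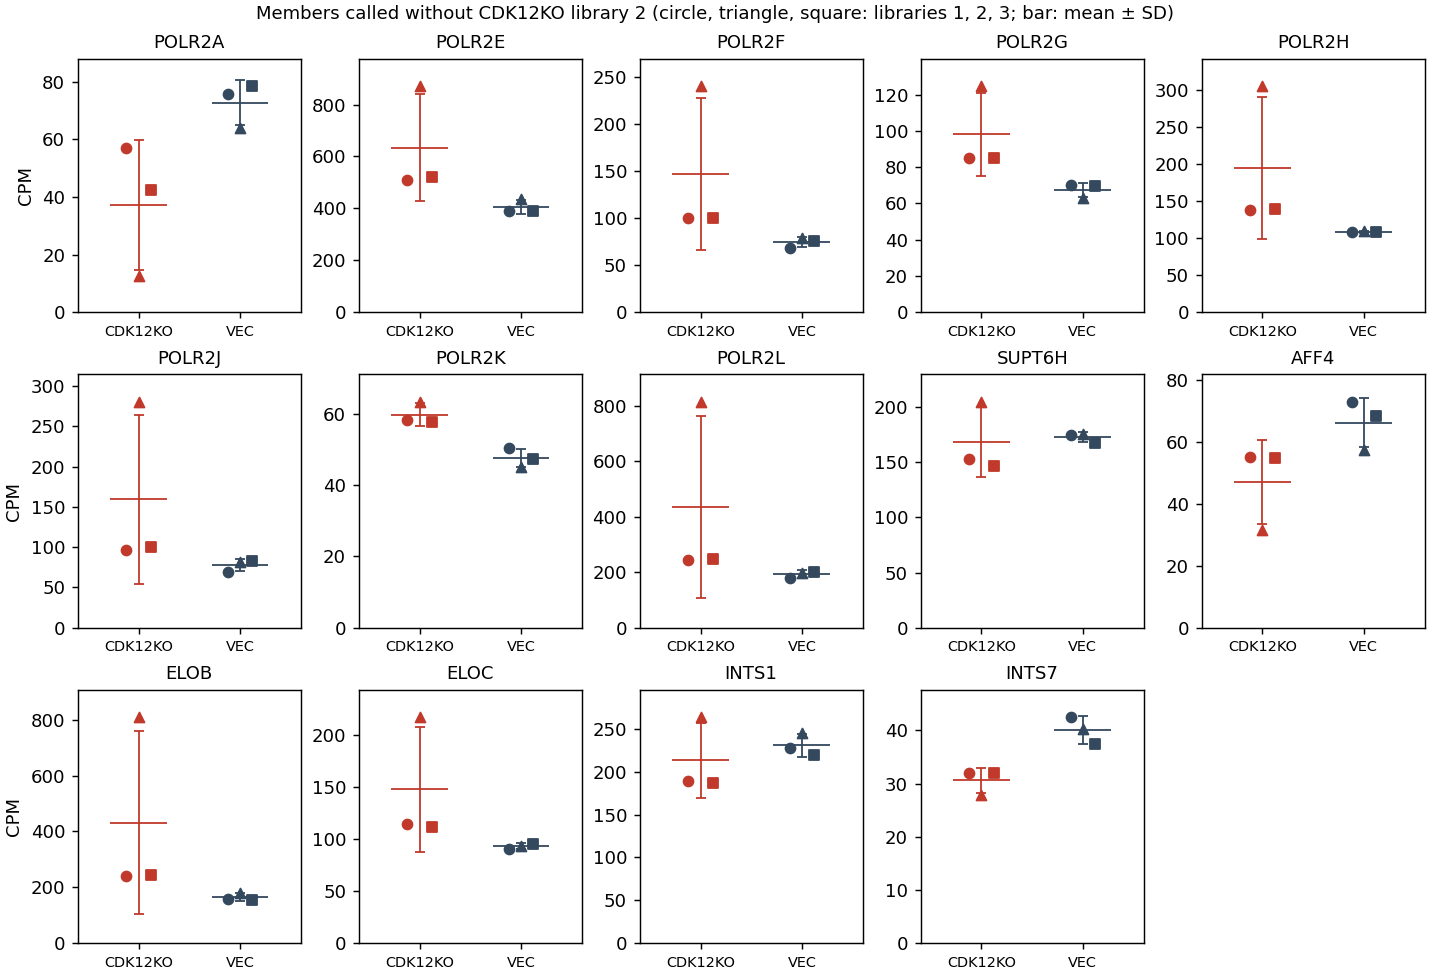
CPM (vertical axis, from 0) of the 14 members called without CDK12KO library 2, one panel per gene, with the CDK12KO libraries left of the VEC libraries; lines and bars are the mean and SD of 3 libraries each. POLR2L stood at 243, 815 and 246 CPM in CDK12KO libraries and at 177, 198 and 202 CPM in VEC libraries, and POLR2A, AFF4 and INTS7 show the opposite order.

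Read per kilobase of the longest annotated transcript, the level of POLR2A was 7.34 CPM per kb in knockout libraries 1 and 3 (mean) and 10.8 CPM per kb in the vector libraries. The same measure in knockout and vector libraries was 18.3 and 21.9 for POLR2B, 77.0 and 60.3 for POLR2H, 181 and 143 for POLR2E and 274 and 216 for POLR2L. Among the subunits POLR2L was thus at the top and, leaving aside POLR2I, POLR2A at the bottom in both groups. These levels depend on which transcript of a gene is taken as its length.

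Promoter sequence was at hand in RefSeq (GRCh38.p14) for 36 of the 47 members. The 250 bases before the start of POLR2A, the polymerase gene that fell, and of POLR2E, POLR2L and ELOB, members that rose in each alternative, are shown 5′ to 3′ on the gene's strand. The motifs and promoters were chosen with the results known, and capitals mark GC boxes.
POLR2A (chr17:7484116-7484365, plus strand): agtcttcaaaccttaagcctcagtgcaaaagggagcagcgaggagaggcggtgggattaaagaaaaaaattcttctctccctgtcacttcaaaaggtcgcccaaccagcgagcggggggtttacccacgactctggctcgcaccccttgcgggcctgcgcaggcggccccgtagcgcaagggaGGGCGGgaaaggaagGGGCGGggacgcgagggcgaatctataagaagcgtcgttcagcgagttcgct
POLR2E (chr19:1095376-1095625, minus strand): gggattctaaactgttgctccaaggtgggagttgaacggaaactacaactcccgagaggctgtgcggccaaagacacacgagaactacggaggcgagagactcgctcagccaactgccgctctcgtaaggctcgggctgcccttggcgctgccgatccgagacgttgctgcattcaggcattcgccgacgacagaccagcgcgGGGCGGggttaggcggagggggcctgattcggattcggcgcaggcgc
POLR2L (chr11:842530-842779, minus strand): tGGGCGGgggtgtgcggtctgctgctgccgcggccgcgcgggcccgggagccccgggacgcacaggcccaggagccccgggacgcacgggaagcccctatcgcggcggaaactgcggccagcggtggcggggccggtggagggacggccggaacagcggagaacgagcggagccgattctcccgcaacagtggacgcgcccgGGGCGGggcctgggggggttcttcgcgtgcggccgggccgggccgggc
ELOB (chr16:2777281-2777530, minus strand): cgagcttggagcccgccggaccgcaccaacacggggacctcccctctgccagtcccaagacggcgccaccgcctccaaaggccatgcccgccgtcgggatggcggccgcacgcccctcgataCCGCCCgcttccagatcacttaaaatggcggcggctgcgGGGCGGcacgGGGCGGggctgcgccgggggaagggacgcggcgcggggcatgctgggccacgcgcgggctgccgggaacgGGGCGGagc
The motifs searched on both strands, overlaps allowed, were the TATA box as TATAAA, the CCAAT box as CCAAT, the GC box as GGGCGG, the ETS core as CCGGAAG and the YY1 motif as AAGATGGC. The GC box occurred 2 times in POLR2A, 1 time in POLR2E, 2 times in POLR2L and 4 times in ELOB, so the gene that fell and the genes that rose had it alike. POLR2F and POLR2H also rose in each alternative but have 2 starts each in RefSeq. POLR2F had 0 GC boxes in either window and POLR2H 3 and 2, so the 4 promoters shown do not stand for all members that rose. It was in 32 of 41 member windows (78.0%), where 42.6% of the 35116 windows of the table had it. TATAAA was in 1 member window (2.44%, where 10.7% of all windows had it) and the ETS core in 12 (29.3%, against 8.52%). CCAAT was in 9 member windows (22.0%, against 32.0% of all) and the YY1 motif in 2 (4.88%, against 1.36%). The table holds windows of all kinds of genes, and these shares describe the letters only.

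Elongin is a complex in which ELOA stimulates the polymerase, and ELOB and ELOC form an adaptor pair that also serves ubiquitin ligases such as VHL. ELOB had the smallest adjusted p of all members without knockout library 2. Its level was 239, 810.0 and 244 CPM in the knockout libraries, against 159, 179.9 and 154 CPM in the vector libraries, which was 0.55 ± 0.07 in log2 without knockout library 2 (edgeR adjusted p = 2.06e-05) and 1.39 ± 0.48 with it (edgeR adjusted p = 0.208). The call without knockout library 2 held in all 13 alternatives, with adjusted p up to 0.00119. ELOC had 114, 217 and 112 CPM in knockout libraries, against 90.4, 93.4 and 95.5 CPM in vector libraries (log2 0.27 ± 0.07, edgeR adjusted p = 0.00757), and lost its call when knockout library 1 or 3 was also left out (edgeR adjusted p = 0.136 and 0.0870). With all libraries ELOC stood at 0.67 ± 0.26 (edgeR adjusted p = 0.221). The adaptor pair rose together, with all knockout libraries above all vector libraries. ELOA had a log2 fold change of -0.15 ± 0.10 in the same fit (edgeR adjusted p = 0.317).

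SUPT6H, the histone chaperone SPT6 that rides with the polymerase, had 153, 205 and 147 CPM in knockout libraries, against 175, 176 and 167 CPM in vector libraries. Knockout libraries 1 and 3 lay below the vector range and knockout library 2 above it. It fell without knockout library 2 (log2 -0.21 ± 0.07, edgeR adjusted p = 0.0291) and stood at -0.04 ± 0.16 with all libraries. AFF4, the scaffold of the super elongation complex, fell in the same fit, with 54.9, 31.5 and 54.6 CPM in knockout libraries, against 72.9, 57.4 and 68.2 CPM in vector libraries (log2 -0.28 ± 0.09, edgeR adjusted p = 0.0446, against 0.248 with all libraries). Both calls were close to the threshold and ended in 6 of the 13 alternatives each, among them the length and GC correction (edgeR adjusted p = 0.124 for SUPT6H and 0.245 for AFF4). Leaving out vector library 1, knockout library 1 or knockout library 3 ended either call (edgeR adjusted p = 0.120, 0.135 and 0.335 for SUPT6H, 0.208, 0.185 and 0.233 for AFF4), and AFF4 also lost its call without vector library 3 (0.127). The other parts of the super elongation complex, ELL and AFF1, had values of 0.20 ± 0.12 and -0.06 ± 0.11 (log2) and did not pass.

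The other 17 tested elongation factors did not pass in either fit of the unstranded counts. In the PAF1 complex, which helps the polymerase through nucleosomes, 0 of 5 passed. Its member LEO1 had 92.4, 32.9 and 86.0 CPM in knockout libraries, against 81.2, 73.5 and 77.3 CPM in vector libraries (log2 0.20 ± 0.08, edgeR adjusted p = 0.0694 without knockout library 2), and PAF1 itself stood at 0.08 ± 0.07 (log2). In LEO1 knockout library 2 kept 43.5% of the reads of the stranded columns, and the other libraries 79.8% to 84.0%. In the sum of these columns LEO1 had 93.5, 62.6 and 91.3 CPM in knockout libraries, against 82.4, 75.5 and 78.3 CPM in vector libraries, and passed without knockout library 2 (log2 0.23 ± 0.07, edgeR adjusted p = 0.0239). For FACT, which moves histones out of the way, SUPT16H had -0.12 ± 0.07 and SSRP1 0.00 ± 0.07. NELF, which holds the polymerase near promoters, gave 0.15 ± 0.07 for NELFB and 0.16 ± 0.07 for NELFE, with adjusted p of 0.116 and 0.138 in edgeR. The DSIF subunit SUPT5H stood at -0.07 ± 0.07, the TFIIS gene TCEA1 at 0.01 ± 0.07, and the 7SK proteins HEXIM1 and LARP7 at -0.13 ± 0.08 and -0.02 ± 0.11. Each of these values is a log2 fold change with its SE in the fit without knockout library 2.

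SUPT4H1 (DSIF) and NELFCD (NELF) were not tested. SUPT4H1 had 2, 0 and 0 counts in knockout libraries and 0 in each vector library, and NELFCD had 0 in each knockout library and 0, 1 and 0 in the vector libraries. These values do not show that the genes were silent, since both had more reads in the stranded columns. For NELFCD GENCODE 29 lists no gene with overlapping exons, so exon overlap in the annotation used here does not account for the difference. NELFCD had 171, 174 and 169.6 CPM in knockout libraries, against 160.2, 156 and 150.1 CPM in vector libraries, in the sum of the stranded columns (log2 0.13 ± 0.06 and edgeR adjusted p = 0.181 without knockout library 2). SUPT4H1 stayed at 24 counts or fewer per knockout library and 34 or fewer per vector library there, and in GENCODE 29 genes on its own strand cover 70.6% of its exonic bases.

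**Figure D3:**
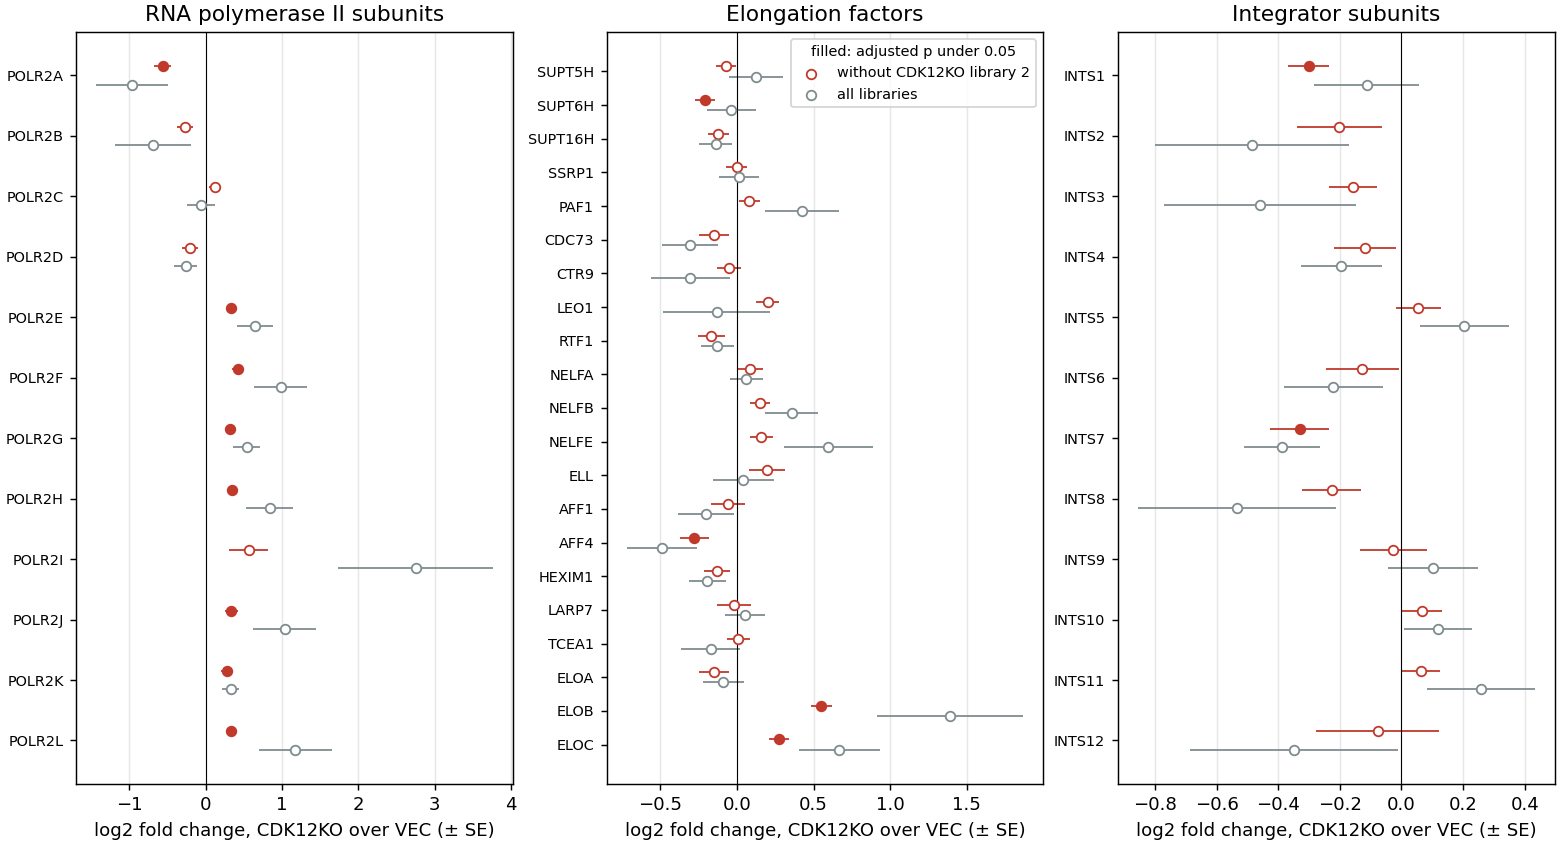
Log2 fold change of CDK12KO over VEC with its SE (horizontal axis, own range per panel) for the 45 tested members, in red without CDK12KO library 2 and in grey with all libraries; filled points passed an adjusted p of 0.05 in edgeR. In the fit with all libraries 0 members are filled and the bars are longer, as for ELOB at 1.39 ± 0.48 against 0.55 ± 0.07 without that library.

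Integrator, whose INTS11 and INTS9 form the RNA-cutting core, had INTS1 and INTS7 lower. INTS1, the largest subunit and part of the scaffold, had 189.9, 264 and 187 CPM in knockout libraries, against 228, 246 and 219 CPM in vector libraries. As in SUPT6H, knockout libraries 1 and 3 lay below the vector range and knockout library 2 above it, and the log2 fold change was -0.30 ± 0.07 without that library (edgeR adjusted p = 0.00348) and -0.11 ± 0.17 with it (edgeR adjusted p = 0.678). INTS7, another scaffold subunit, had 32.0, 27.8 and 32.0 CPM in knockout libraries, against 42.5, 40.3 and 37.4 CPM in vector libraries (log2 -0.33 ± 0.10, edgeR adjusted p = 0.0200 without knockout library 2). All knockout libraries were below all vector libraries in INTS7, and with all 6 libraries it had the smallest p of any member (unadjusted 0.0153, edgeR adjusted p = 0.194). INTS1 and INTS7 lost their calls when knockout library 1 or 3 was also left out (edgeR adjusted p = 0.0503 and 0.0917 for INTS1, 0.134 and 0.160 for INTS7), and INTS7 without vector library 1 (0.0962). In all, 4 of the 13 alternatives ended the call of INTS7.

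INTS8, which links Integrator to the phosphatase PP2A, had 34.8, 14.7 and 37.0 CPM in knockout libraries, against 44.9, 38.6 and 41.8 CPM in vector libraries, and did not pass (log2 -0.23 ± 0.10, edgeR adjusted p = 0.110). In INTS8 knockout library 2 kept 32.0% of the reads of the stranded columns, and the other libraries 57.5% to 64.4%. In the sum of these columns it had 50.6, 37.9 and 54.4 CPM in knockout libraries, against 59.8, 51.1 and 56.4 CPM in vector libraries, and the groups overlapped (log2 -0.09 ± 0.08, edgeR adjusted p = 0.470 without knockout library 2). The cutting core did not pass either, with INTS11 at 0.06 ± 0.06, INTS9 at -0.03 ± 0.11 and INTS4, the partner of both, at -0.12 ± 0.10 (log2 ± SE). The remaining Integrator subunits lay between -0.20 and 0.07 in the fit without knockout library 2.

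The members' changes followed the length of their transcripts. The 9 members that rose without knockout library 2 had transcripts of 0.892 to 2.83 kb, the 5 that fell had 4.45 to 9.55 kb, and the 31 others had 0.913 to 15.4 kb. Across the 45 tested members Spearman's rho between transcript length and log2 fold change was -0.84 without knockout library 2 and -0.76 with it, where all tested genes with a length gave -0.25 and -0.36. These are descriptions across genes of the same libraries, and genes are not independent. Within Integrator, where every transcript is at least 1.98 kb, rho was -0.69 and -0.46.

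The same length trend ran through all genes and was steepest in knockout library 2. Over tested genes with transcripts up to 1 kb knockout libraries 1, 2 and 3 had a median shift from the vector mean of 0.14, 0.82 and 0.21, and over those longer than 5 kb it was -0.12, -0.46 and -0.13. POLR2I, POLR2J, POLR2L and ELOB, the members up to 1 kb, had a median shift of 0.44, 2.19 and 0.36, and the 12 members longer than 5 kb -0.16, -0.50 and -0.23. A trend of this kind also separated the vector libraries, with rho of length and shift at 0.18, -0.28 and 0.14 in vector libraries 1, 2 and 3 over all genes. Each vector library is part of the mean from which its shift was taken, so these 3 values depend on each other. The knockout libraries are not part of that mean, so their shifts are not measured in quite the same way. The 12 ribosomal protein genes fixed as a check, which are short, rose in the fit without knockout library 2 (12 of 12), with a summed level of 28333, 64811 and 28104 CPM in knockout libraries, against 22337, 24667 and 21907 CPM in vector libraries. Their part in the members' changes was not tested.

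When each library was adjusted for how its counts ran with length and GC content of the transcripts, 11 of the 14 members kept their call without knockout library 2, and POLR2K, SUPT6H and AFF4 did not. In that fit 8 members were higher and 3 lower, where 19.7% of tested genes passed (9.76% higher and 9.89% lower). The log2 fold change became -0.49 for POLR2A, 0.27 for POLR2E, 0.21 for POLR2L, 0.41 for ELOB and -0.33 for INTS1. The median of the polymerase subunits was 0.21 after the correction and 0.33 before it. The correction removes the trend with length that all genes of a library share, including one that the knockout itself caused. The members ran more steeply with length than all tested genes (rho -0.84 against -0.25 without knockout library 2, before the correction). A trend among the members can therefore remain after it, and the kept calls are not shown to be free of length. The part of length in the uncorrected values was not tested further.

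**Figure D4:**
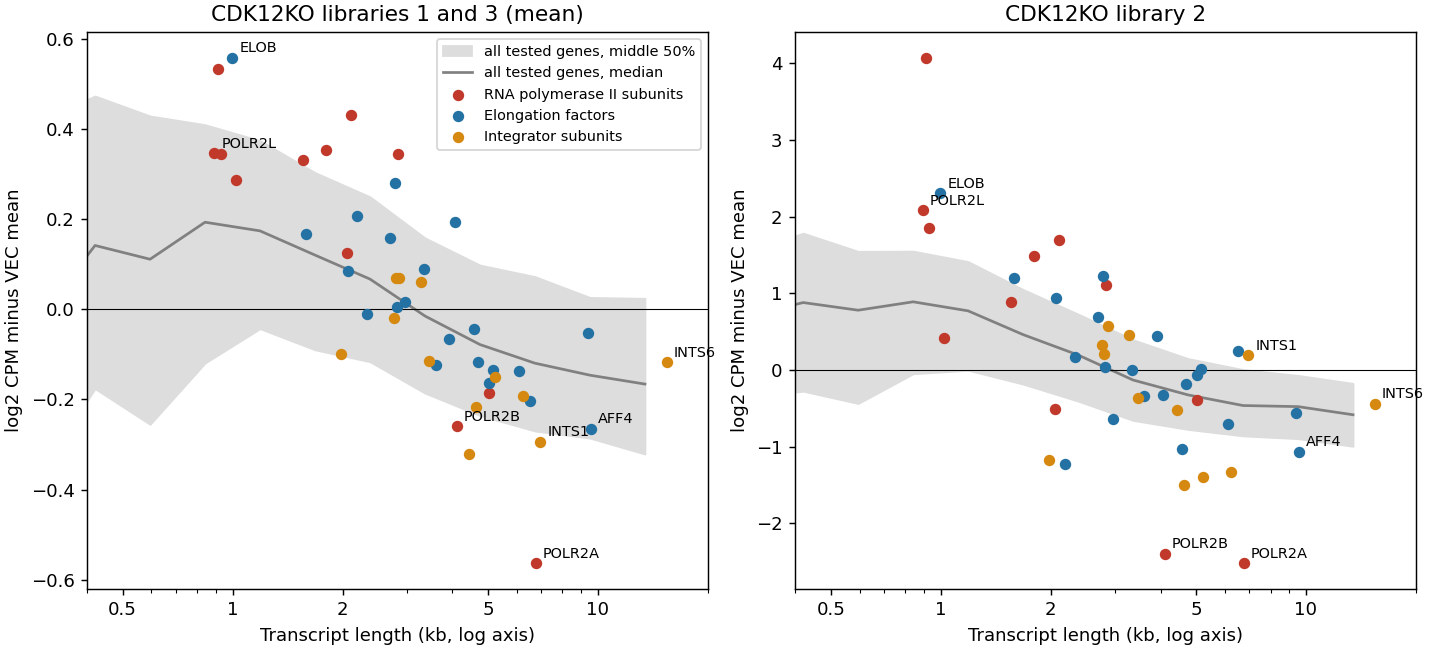
Log2 CPM minus the vector mean (vertical axis, own range per panel) against transcript length (log axis, kb), for the mean of CDK12KO libraries 1 and 3 on the left and CDK12KO library 2 on the right; the grey line and band are the median and middle 50% of all tested genes. ELOB and POLR2L lie above and POLR2A below the grey line in both panels, while POLR2K is above it on the left and below it on the right.

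Genes around the called members had smaller median changes than those members. The called members were picked by their change, and a median over many genes lies near 0, so this order was likely in advance. It does not say whether a change was particular to a member. The median log2 fold change of the other tested genes within 5 Mb, without knockout library 2, ran from -0.10 around SUPT6H to 0.18 around ELOC over the 14 called members. It was 0.03 around POLR2A and 0.07 around ELOB.

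Other genes of the transcription pathway, in 6 further lists, gave 10 higher and 12 lower calls among 121 tested genes without knockout library 2, where 19.1% of all tested genes passed. With all 6 libraries 0 of the 121 passed in edgeR, where 0.596% of all tested genes did, and 2 passed in DESeq2, where 4.40% did. Of the 121, 20 had an unadjusted p under 0.05 in edgeR, where 21.7% of all tested genes did. Polymerases I and III had 2 higher and 4 lower calls among 18 subunits (33.3%), with POLR1B at -0.39 (log2), and POLR1D and POLR3K at 0.23 and 0.24. POLR1B is the second-largest subunit of polymerase I, and POLR1D and POLR3K are small subunits. Among 28 tested elongation partners 4 rose and 5 fell (32.1%). AFF3, a relative of AFF4, had -0.65, RPRD1A, which binds the POLR2A tail, -0.47, and the TFIIS relatives TCEA3 and TCEA2 0.82 and 0.43.

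In Mediator, which bridges activators and the polymerase, 3 of 28 subunits rose and 1 fell (14.3% passed, where 19.1% of all tested genes did). MED1, MED8 and MED20 rose by 0.51, 0.28 and 0.45, and MED22 stood at -0.65 (log2, without knockout library 2). Of 26 tested general transcription factors 7.69% passed. GTF2A2, a TFIIA subunit, rose by 0.32 and TAF4, a TFIID subunit, stood at -0.48 and passed. GTF2A1 and GTF2E2 followed at -0.22 and 0.19 and did not pass. The kinase and cyclin list had 1 call of 12 (8.33%). This was CCNK, the cyclin K gene, at -0.58, which stood at -0.03 (edgeR adjusted p = 0.839) in the sum of the stranded columns. CDK8, CCNH and CDK13 stood at -0.26, 0.19 and -0.24 and did not pass. Of the 9 later Integrator subunits and partners 0 passed in edgeR in either fit (0 at an unadjusted p under 0.05, 0 in DESeq2), with INTS13 at -0.17, NABP2 at 0.09, INIP at 0.14 and INTS15 at 0.10.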

How the data were processed

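Messenger RNA libraries of 3 CDK12KO and 3 VEC samples of C4-2 cells were analysed. The authors deposited raw read counts per gene for each sample, made with STAR on GRCh38 after FastQC, per the submitters' processing notes. Their versions, and which gene annotation was counted, are not given in the sources used. Per the file headers, which have the layout of STAR's gene table, 4 summary rows come first (reads unmapped 4.07% to 5.51%, ambiguous between genes 11.2% to 14.4%). These rows were left out of library sizes and tests. The unstranded counts were used, which leave out reads shared by overlapping genes, and the sum of the 2 stranded columns was an alternative.

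Counts were tested with edgeR 4.0.16 in R 4.3.3 (filterByExpr, TMM, robust quasi-likelihood test, Benjamini-Hochberg adjustment over all tested genes, threshold 0.05), with group as the only term, once with all 6 libraries and once without CDK12KO library 2. CPM used TMM-scaled library sizes, and log2 CPM had a prior count of 2. DESeq2 1.42.0, other scaling, filters, a replicate block, a length and GC correction of each library and leaving out each library were alternatives. Transcript length was that of the longest transcript in GENCODE 29 not annotated as retained intron, a rule chosen because the POLR2A entry labelled protein-coding there is truncated. On simulated data the test recovered 32% of 2-fold and 79% of 4-fold changes among 15783 genes with all libraries, and 63% and 90% among 16339 genes without CDK12KO library 2. Genes given no change had 6 false calls with all libraries and 13 without CDK12KO library 2. The simulation gave no library a length trend like that of CDK12KO library 2. It held no change smaller than 2-fold, while the called members changed by less than that without CDK12KO library 2. Libraries of a group differed beyond counting noise (chi-square per degree of freedom at least 3.27).

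The members, the lists and the fit without CDK12KO library 2 were chosen with earlier results of these data known. Values in every library are given for each member with an adjusted p under 0.05 in either fit and for the 2 members of each group with the smallest p in each fit. Up to 4 genes with the smallest adjusted p were named from each further list. One gene that this rule names is not reported here. Some other members were given the same values after these were seen.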

Additional observations from a re-analysis of the deposited data

How the results depend on the processing

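With all 6 libraries, edgeR called 94 genes and 0 members. Without a filter on low counts it called 363 genes, with the length and GC correction 167, and DESeq2 called 712 genes and 1 member. Leaving out 1 library gave 4 to 3123 genes and 0 to 14 members, the highest without CDK12KO library 2. Without CDK12KO library 2, edgeR called 3123 genes and 14 members, and leaving out 1 further library gave 1134 to 4703 genes and 5 to 20 members. With 1 knockout library left, that library is assumed to vary like the others. Every library's deviation correlated best with the same-numbered library of the other group (0.135, 0.194 and 0.0841), a hint from the data only, since the labels tie no number to a shared batch. The last value was close to 0.0762 for CDK12KO library 1 with VEC library 3 and 0.0624 for CDK12KO library 3 with VEC library 1. Deviations within a group depend on each other, so these correlations are not independent. The replicate block called 5 genes and 0 members with all libraries (25 genes with the length and GC correction), and 5540 genes and 24 members without CDK12KO library 2. In the latter fit VEC library 2 has no same-numbered partner and adds nothing to the group difference. Its larger count of calls therefore rests on fewer libraries. With both the block and the length and GC correction INTS7 stood at -0.21 and lost its call, and POLR2D, which passed in 0 of the 13 alternatives, turned to 0.05.

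Medians are counted as moved where they shifted by more than the pooled SD of the per-library medians within groups. The polymerase median without CDK12KO library 2 was 0.33, and 0.21 with the length and GC correction, 0.17 with that correction and the replicate block, 0.29 in the stranded sum and 0.29 to 0.33 with 1 library left out. The elongation median with all libraries was -0.04, and -0.0251 with RLE scaling, -0.0530 with the replicate block, 0.0678 with the correction, 0.0533 with both, -0.0641 in the stranded sum and -0.0623 to 0.0326 with 1 library left out. Without CDK12KO library 2 it was -0.02, and -0.0053 without a filter, -0.0395 with the block, -0.0030 with correction and block, -0.0631 in the stranded sum and -0.0397 to 0.0171 with 1 library left out. The Integrator median without CDK12KO library 2 was -0.12, and -0.0648 with correction and block and -0.153 to -0.0787 with 1 library left out. The cause of these shifts was not tested. Over single members and alternatives, 0 of the comparisons reversed a call, while 29 lost and 21 gained one without CDK12KO library 2. Against the fit with all libraries 15 gained one. Of these, 14 arose by leaving out CDK12KO library 2, which is the other main fit, and the remaining gain was ELOB in DESeq2.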
